A study of Rattus norvegicus with 6 samples.

Results

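A set of 5 genes that handle RNA or carry proteins between nucleus and cytoplasm, Magoh, Mex3c, Eif4b, Pop7 and Cse1l, was followed in rat testis after exposure to di(2-ethylhexyl) phthalate (DEHP), a plasticizer. Each of the 5 genes has 1 probe, repeated in 10 spots, among the 39886 non-control probes of a one-colour Agilent array built mainly for PIWI-interacting RNAs (piRNAs). The 5 were chosen by name from an earlier reading of the same DEHP and control arrays, in which they lay higher in DEHP testis. Their differences between the groups are therefore a description of how they were chosen and support nothing. The limma calls given for them below are part of that description and no test of an effect. The DEHP group held 3 male Sprague-Dawley rats given 1000 mg/kg/day by gavage for 28 days. The control group held 3 male rats of the same strain given corn oil, the vehicle, over the same period. Whole testis was taken from every animal at 11 weeks, 1 testis and 1 array per rat. In the design text the 2 treatments are listed against the opposite groups, so each direction below rests on the sample titles.

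A messenger RNA is spliced, marked, exported, translated and finally degraded. The proteins of Magoh, Mex3c and Eif4b serve steps of that path. Pop7 serves the processing of transfer and ribosomal RNA precursors, and Cse1l the traffic of proteins through nuclear pores. The exon junction complex is laid down at splice sites and stays with the message until the first round of translation, where it helps to tell normal from faulty transcripts. Translation factors of the eIF4 group recruit ribosomes to the cap, and RNase P trims transfer RNA precursors. Importins and exportins move proteins through nuclear pores. In the testis, spermatids store many messages and translate them later, after transcription has stopped, so that RNA-binding and translation factors have long been studied there. In Drosophila, the exon junction complex is needed for correct splicing of the piwi transcript.

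On these arrays the 5 genes were all higher in DEHP testis. The differences ran from 0.39 for Pop7 to 0.84 for Mex3c on the log2 scale, where each value is the mean log2 signal of a probe's spots minus the 75th percentile of its array. In each of the 5 the lowest DEHP array lay above the highest control array. Over all 23090 probes kept (those that stood well above background on 3 or more arrays), 20.6% had all DEHP arrays above all control arrays, and among 20 other mRNA probes from the manufacturer's catalogue the share was 70.0%. Over all kept probes 37.5% had groups that did not overlap in either direction. The difference between the groups passed limma's threshold of 0.05 (Benjamini-Hochberg over all kept probes) in 4 of the 5, the exception being Pop7. Of all kept probes 10.7% passed, 4.44% with the higher signal in DEHP testis, and of the 20 other catalogue mRNA probes 60.0%. Because the contrast chose the 5 genes, nothing is read from these counts.

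The arrays measured the 5 probes well above background throughout. All 10 spots of each probe carried that flag on every array, no spot was saturated, and 8 to 10 spots per array remained once outliers were left out. Signals were 34.1 to 317 times the median negative control of the same array. Of the 39886 probes, 22336, 23600 and 23866 were well above background on DEHP arrays 1, 2 and 3, against 16802, 23819 and 21395 on control arrays 1, 2 and 3. Going by an identifier of the scan that the headers carry, the DEHP arrays and control 1 were read in scan 1, and controls 2 and 3 in scan 2. If that identifier marks a slide, as is assumed here, only control 1 shares a slide with the DEHP arrays. Probes differ in how well they bind, so the level of one gene is not set against that of another.

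Magoh encodes a core subunit of the exon junction complex, in which it pairs with Rbm8a. Its catalogue probe, A_44_P535706, read 2.50, 2.45 and 2.20 in DEHP testes 1, 2 and 3, against 1.83, 1.66 and 1.67 in control testes 1, 2 and 3 (centred log2 signal). DEHP 3 was the lowest of its group and control 1 the highest of its own, and 0.38 log2 units still lay between these arrays. The group means were 2.39 ± 0.16 in DEHP testis and 1.72 ± 0.09 in control testis (SD, n = 3 each), a difference of 0.67 with a standard error of 0.14, or 1.59-fold. Before centring, the signals were 399, 456 and 347 intensity units in DEHP testes and 189, 262 and 188 in control testes. The groups were apart on that scale too, with the lowest DEHP signal 1.32 times the highest control signal. Against control 1 alone, the difference was 0.56.

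**Figure D1:**
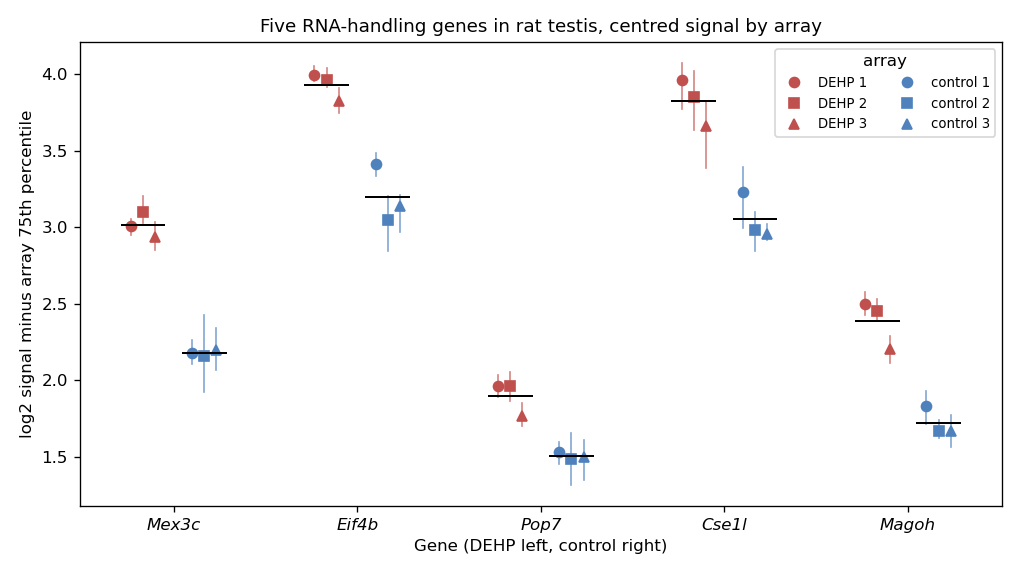
Centred log2 signal (log2 signal minus the array's 75th percentile) of the 5 genes on each array, DEHP left and control right, with circle, square and triangle for replicates 1, 2 and 3. Vertical lines span the spots of a probe and black bars are group means over 3 arrays. In each gene the 3 DEHP means sit above the 3 control means, and DEHP 3 is the lowest DEHP array. The genes were chosen for this direction. All DEHP arrays lay above all control arrays in 20.6% of all kept probes and 70.0% of the 20 other catalogue mRNA probes. Heights of different genes are not comparable.

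Mex3c encodes an RNA-binding protein with KH domains and a RING finger that acts as a ubiquitin ligase and takes part in mRNA decay and translation. Probe A_43_P20016 read 3.01, 3.10 and 2.93 in DEHP testes 1, 2 and 3, against 2.18, 2.16 and 2.20 in control testes 1, 2 and 3. The control arrays were nearly alike, with 0.74 log2 units between the highest of them and the lowest DEHP array, the widest gap of the 5 genes. The means were 3.01 ± 0.08 in DEHP testis and 2.18 ± 0.02 in control testis (SD, n = 3 each), which differ by 0.84 with a standard error of 0.13, or 1.78-fold. Uncentred signals were 568, 712 and 575 in DEHP testes and 241, 369 and 271 in control testes. Control 1 did not stand apart from the other controls here, and the difference against it alone was also 0.84.

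Eif4b encodes a cofactor of the eIF4A helicase, which unwinds the start of messages for the scanning ribosome. Probe A_44_P1033541 read 3.996, 3.96 and 3.83 in DEHP testes 1, 2 and 3, against 3.41, 3.05 and 3.14 in control testes 1, 2 and 3. The spread was wider among controls, where control 1 lay 0.32 above the mean of controls 2 and 3. The means were 3.93 ± 0.09 in DEHP testis and 3.20 ± 0.19 in control testis (SD, n = 3 each), a difference of 0.73 with a standard error of 0.16, or 1.66-fold. Against control 1 alone it was 0.51, and against controls 2 and 3 it was 0.84. The uncentred signals did not overlap, at 1124, 1297 and 1070.0 in DEHP testes and 568, 683 and 521 in control testes.

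Pop7, also called Rpp20, encodes a subunit shared by RNase P, which removes the leader of transfer RNA precursors, and RNase MRP, which acts on ribosomal RNA precursors. Probe A_43_P16530 read 1.96, 1.96 and 1.76 in DEHP testes 1, 2 and 3, against 1.53, 1.49 and 1.49 in control testes 1, 2 and 3. It had the smallest difference of the 5, 0.39 with a standard error of 0.13 (1.31-fold), between means of 1.89 ± 0.11 in DEHP testis and 1.504 ± 0.023 in control testis (SD, n = 3 each). Its groups were 0.23 log2 units apart at their nearest arrays, DEHP 3 and control 1. Uncentred, it read 274, 324 and 256 in DEHP testes and 154, 232 and 167 in control testes, where the lowest DEHP signal was 1.105 times the highest control signal. With median centring in place of the 75th percentile, the difference was 0.18.

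Cse1l encodes an exportin that returns importin alpha to the cytoplasm after each round of nuclear import. Probe A_44_P1017335 read 3.96, 3.85 and 3.66 in DEHP testes 1, 2 and 3, against 3.23, 2.98 and 2.96 in control testes 1, 2 and 3. As with Magoh and Eif4b, control 1 was the highest control array, 0.26 above the mean of controls 2 and 3. The means were 3.83 ± 0.15 in DEHP testis and 3.05 ± 0.15 in control testis (SD, n = 3 each), which differ by 0.77 with a standard error of 0.16, or 1.71-fold. Against control 1 alone the difference was 0.60. Uncentred signals were 1099, 1205 and 954 in DEHP testes and 499, 651 and 460.2 in control testes, with no overlap.

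**Figure D2:**
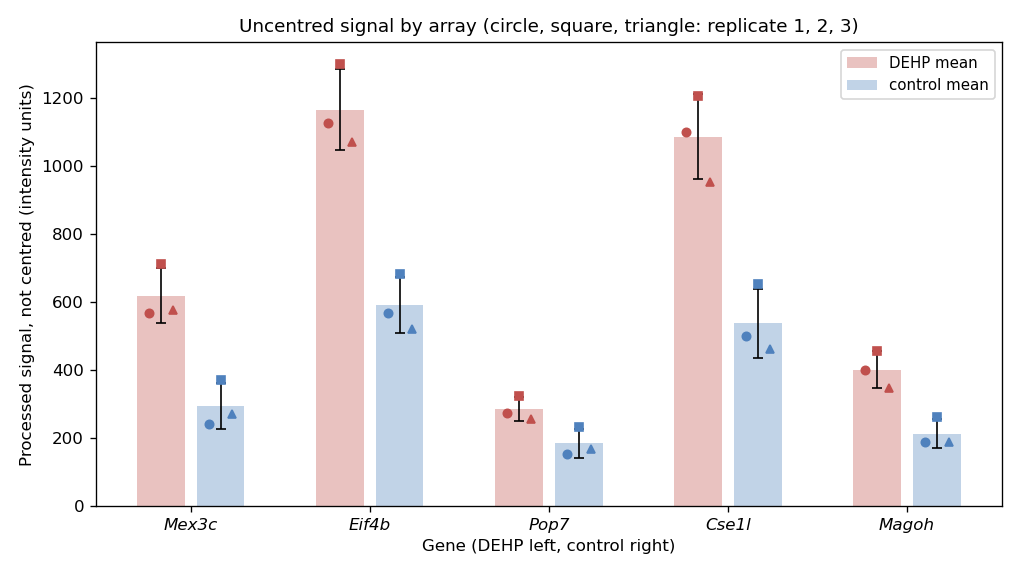
Uncentred processed signal (linear intensity units) of the 5 genes, DEHP left and control right. Bars are means of 3 arrays, error bars their SD, and symbols single arrays. No gene has a control array above a DEHP array, but the genes were chosen for this direction. The share over all probes was not computed on this scale. Replicate 2 is the brightest array in both groups for all 5 genes. Heights of different genes are not comparable.

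The differences were larger before centring. The median difference over all kept probes was then 0.31, against 0.05 after centring. How many of all probes had groups apart before centring was not computed. On the log2 scale the 75th percentiles were 6.14, 6.38 and 6.24 on DEHP arrays 1, 2 and 3, against 5.74, 6.37 and 5.89 on control arrays 1, 2 and 3. Mean uncentred signals of DEHP testis over control testis gave ratios of 2.11 for Mex3c, 2.02 for Cse1l, 1.97 for Eif4b, 1.88 for Magoh and 1.55 for Pop7. Replicate 2 had the highest percentile and the highest uncentred signal of the 5 genes in both groups.

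The 10 spots of a probe give the precision of a single array. The pooled SD between spots was 0.06 for Magoh, 0.08 for Mex3c, 0.07 for Eif4b, 0.06 for Pop7 and 0.11 for Cse1l on the log2 scale. The pooled SD between arrays of a group was 0.13, 0.06, 0.15, 0.08 and 0.15 for the same genes in that order. The mean of 8 to 10 spots has a standard error of 0.02 to 0.04, below the SD between arrays in each of the 5 genes. In 4 of the 5 genes every DEHP spot lay above every control spot after centring. In the exception, Cse1l, the lowest DEHP spot was at 3.388 and the highest control spot at 3.395. The share of all probes with spots apart in this way was not computed, so nothing is read from this count. By arrays, 20.6% of all kept probes and 70.0% of the 20 other catalogue mRNA probes had DEHP above control throughout. Spots of an array share its RNA and its labelling and are not replicates of a treatment.

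After centring, DEHP 3 was the lowest DEHP array for all 5, and DEHP 1 the highest for 4, with DEHP 2 the highest for Mex3c. Control 1 was the highest control array for 4, with control 3 the highest for Mex3c. Before centring DEHP 2 was the highest DEHP array for all 5 genes. DEHP 3 was still the lowest DEHP array except for Mex3c, where DEHP 1 was. The order of the arrays thus rests in part on the centring. Across 20 other catalogue mRNA probes, control 1 lay above the mean of controls 2 and 3 in 19, by a median of 0.29, whereas over all 23090 kept probes the median was -0.01. The 4 genes other than Mex3c had offsets of 0.04 for Pop7, 0.16 for Magoh, 0.26 for Cse1l and 0.32 for Eif4b, and Mex3c had one of -0.0005. Control 1 is the array with the fewest probes above background and the one read with the DEHP arrays. The part of either in these offsets was not tested.

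Within scan 1, which holds control 1 and the 3 DEHP arrays, the differences were 0.56 for Magoh (standard error 0.19), 0.84 for Mex3c (0.18), 0.51 for Eif4b (0.18), 0.36 for Pop7 (0.17) and 0.60 for Cse1l (0.19). The fit takes the single control to vary as much as DEHP arrays do. All 5 kept their sign, but these arrays are among those that chose the genes. The share of all probes that kept theirs was not computed, so nothing is read from this count. The median difference was 0.56 for the 5 genes, 0.55 for the other catalogue mRNA probes and 0.06 for all kept probes. Scan 2 holds controls only and gives no difference. With the scan as a block in the fit the differences are the same by construction, and none of the 5 passed limma's threshold (4 had an unadjusted p below 0.05). Of 23090 probes 7 passed in that fit. Scan 1 holds a single control, so only the size of the differences is given for it.

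The 5 genes were close to the other catalogue mRNA probes in their difference between the groups. Their median was 0.73, against 0.75 for the 20 other catalogue mRNA probes (quartiles 0.42 and 0.83), 0.27 for 31 custom mRNA probes and 0.05 for all kept probes. Of the 20 catalogue probes, 5 had a larger difference than Mex3c, 7 than Cse1l, 11 than Eif4b, 12 than Magoh and 16 than Pop7. Over the 51 other mRNA probes, catalogue and custom, 20 passed with the higher signal in DEHP testis (39.2%) and 2 with the lower. After normexp background correction and quantile normalization the median of the 5 was 0.91, against 0.54 for the other catalogue probes. With quantile normalization alone the medians were 0.98 and 0.86, and with normexp and percentile centring 0.79 and 0.53, so the 2 medians were not equally close in every setting.

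**Figure D3:**
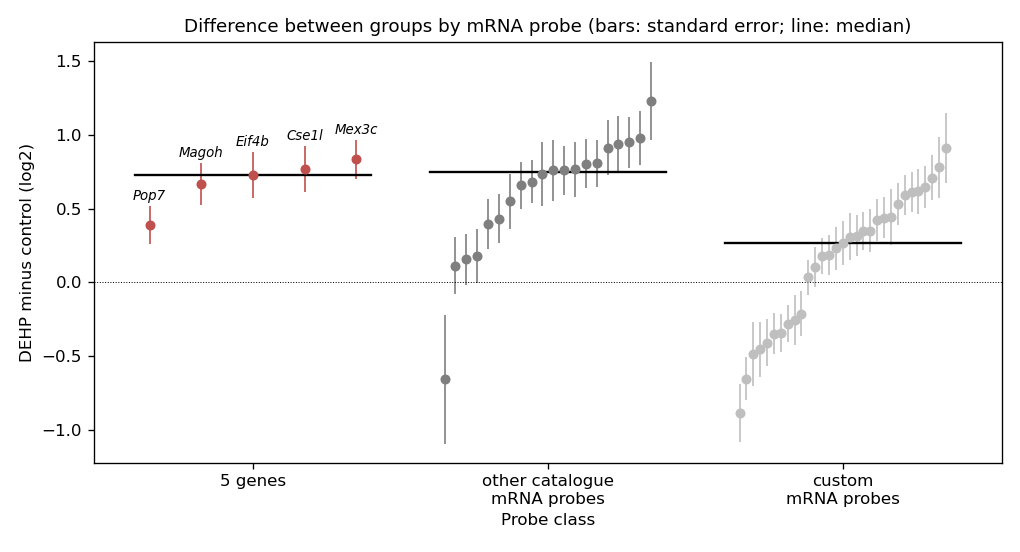
Difference between DEHP and control (log2, centred signal) for the 5 genes, 20 other catalogue mRNA probes and 31 custom mRNA probes, each with its standard error. Black lines are medians, 0.73, 0.75 and 0.27. The 5 genes lie inside the range of the other catalogue probes.

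Few relatives of the 5 genes are on the array. Of 65 listed genes of the exon junction complex and decay, the MEX3 family, translation, RNase P and nuclear transport, the 5 genes and 1 more had an assigned probe. That gene, Rpl13a, encodes a protein of the large ribosomal subunit and has 3 custom probes. The first read 1.80, 1.60 and 1.63 in DEHP testes and 1.41, 1.26 and 1.31 in control testes, a difference of 0.35. The other Rpl13a probes differed by 0.35 and 0.18, and none of the 3 passed (limma, adjusted p from 0.105 to 0.329). On the second, the lowest DEHP array, at 0.55, lay just above control 2, at 0.50. Rplp1, another protein gene of the large subunit that was not in the lists and was looked up after its values were seen, has 3 custom probes whose differences were 0.60, 0.44 and -0.41. Only the first passed (limma, adjusted p = 0.0277), and the 3 did not share 1 direction.

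Of 29 listed marker genes of testis cell types, Lhcgr, the luteinizing hormone receptor of Leydig cells, was the only one with an assigned probe. It read -0.0082, 0.0079 and -0.35 in DEHP testes 1, 2 and 3, against -0.28, -0.81 and -0.91 in control testes 1, 2 and 3, a difference of 0.55 with a standard error of 0.18 that did not pass (limma, adjusted p = 0.0784). DEHP 3 was the lowest DEHP array, as in all 5 genes, and control 1 the highest control array, as in all but Mex3c. Here DEHP 3 lay below control 1. No listed marker of germ, Sertoli, peritubular, endothelial, blood or macrophage cells was matched to a probe, so the tissue could not be checked against them. In whole testis a change in the share of a cell type and a change of RNA per cell cannot be told apart. The part of either in the differences of the 5 genes was not tested.

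The probes nearest in profile to the 5 genes came from other classes of gene. Of the listed relatives only Rpl13a has probes, so the array nearly fixed this outcome and nothing is read from it. Likeness was the root mean square, over the 6 arrays, of the difference between a probe's values and the mean profile of the 5, each taken minus its own mean. That profile holds the difference that chose the genes. Among 42 other mRNA probes with a named gene and signal above background on all 6 arrays, the nearest was Odf2l, a relative of the sperm outer dense fibre gene Odf2, at 0.054 log2 units. It read 2.08, 2.16 and 1.80 in DEHP testes and 1.46, 1.28 and 1.25 in control testes, with DEHP 3 again the lowest DEHP array and control 1 the highest control array. Next were the Nedd4-ligase adaptors Ndfip2 (0.085) and Ndfip1 (0.088), a custom probe of the glycolytic enzyme Gapdh (0.091) and the pyruvate dehydrogenase kinase Pdk3 (0.099). Of the 5 genes themselves Magoh was nearest to the mean profile, at 0.028, and Pop7 farthest, at 0.15, although each of the 5 enters that mean. Odf2l was nearer to it than 4 of the 5 genes were, all but Magoh.

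Promoter sequence in the RefSeq table (GRCr8) matched 2 of the 5 genes, Cse1l and Magoh. The 250 bases before each start site are shown because both genes were chosen for the same higher signal, and capitals mark the motifs found. Cse1l lies at chr3:176059988-176060237 and Magoh at chr5:127867836-127868085, both on the plus strand.
Cse1l: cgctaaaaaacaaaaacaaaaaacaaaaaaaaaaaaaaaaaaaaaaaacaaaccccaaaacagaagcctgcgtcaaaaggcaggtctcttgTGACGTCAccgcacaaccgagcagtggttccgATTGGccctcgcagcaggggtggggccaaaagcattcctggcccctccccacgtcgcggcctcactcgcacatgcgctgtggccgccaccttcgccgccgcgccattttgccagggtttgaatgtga
Magoh: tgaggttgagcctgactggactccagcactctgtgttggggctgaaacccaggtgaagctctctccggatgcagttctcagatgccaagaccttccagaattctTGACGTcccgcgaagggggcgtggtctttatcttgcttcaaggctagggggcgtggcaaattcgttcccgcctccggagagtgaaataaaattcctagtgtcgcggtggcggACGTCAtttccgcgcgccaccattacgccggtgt
A set of 6 short motifs was searched on both strands from 250 bases before to 50 after the start: the TATA box (TATAAA), the CCAAT box (CCAAT), the GC box (GGGCGG), the cyclic AMP response element core (TGACGT), the ETS core (CCGGAAG) and the nuclear receptor half-site (AGGTCA). The cyclic AMP core occurred in both promoters. In Cse1l it began 159 bases before the start on the plus strand and overlapped a copy on the minus strand, and a CCAAT box lay on the minus strand 127 bases before the start. In Magoh it began 146 bases before the start on the plus strand, with a second copy on the minus strand 34 bases before it. Of 33469 rat promoters of the same length, 7.94% held that core and 37.5% a CCAAT box. The matches are letters in a window and were not tied to binding or to the arrays.

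**Figure D4:**
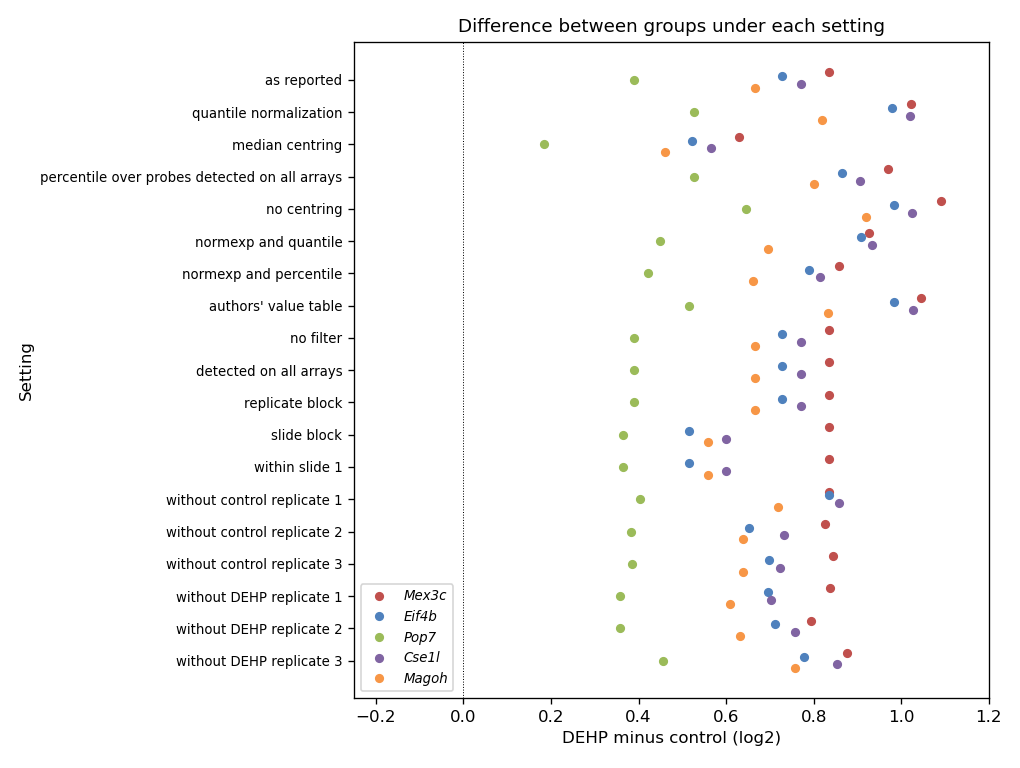
Difference between DEHP and control (log2) for the 5 genes, 1 point per gene and row, under the setting reported here, 12 other settings and the removal of each array. All points lie above 0, and the genes were chosen for a higher signal in DEHP testis. Median centring gives the lowest value for Mex3c, Pop7, Cse1l and Magoh, and the scan as a block the lowest for Eif4b.

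The size of the differences changed with the setting. Over the settings that kept every array or the arrays of scan 1, they ran from 0.63 to 1.09 for Mex3c, 0.57 to 1.03 for Cse1l, 0.51 to 0.98 for Eif4b, 0.46 to 0.92 for Magoh and 0.18 to 0.64 for Pop7. Between the settings that differ in centring alone, the median of all kept probes shifted by the same amount as the genes, from -0.15 with median centring to 0.31 with no centring, against 0.05 in the setting used here. With quantile normalization the median of the 5 was 0.98 and that of all kept probes 0.03. Leaving out DEHP 2 left none of the 5 genes past the threshold (limma, 4 at an unadjusted p below 0.05). Over all 23090 kept probes 275 passed in that fit, against 2471 in the setting used here. Without control 3 or without DEHP 1 only Mex3c passed of the 5, and the counts over all kept probes were 544 and 478.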

How the data were processed

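Total RNA of 6 testes was labelled with Cy3 as cRNA using the Quick Amp kit, per the labels' protocols. Per the file headers, Agilent Feature Extraction 11.0.1.1 read the arrays. Each deposited file gives for a spot a background-subtracted intensity, median spot and local background intensities, and other values (flags, 0 or 1). A table of log2 values deposited by the authors, made by a method not given here, served as an alternative.

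Control and outlier spots were left out, log2 signals were averaged over spots, and the 75th percentile of its array was subtracted. Probes well above background (over 50% of spots) on at least 3 arrays were kept, 23090 of 39886. The comparison used R 4.3.3 and limma 3.58.1 (lmFit, eBayes with trend, Benjamini-Hochberg, two-sided). It was also run on simulated arrays with independent noise and no scan effect. That run checked the code only, and nothing about the real arrays is read from it. The number of arrays limits precision. Genes were named by RefSeq accession on GRCr8, which matched 61 of 67 mRNA probes to 38 genes. The genes, lists, tests and alternatives were chosen with earlier results of these data known. The named probes are the 5 genes, listed genes with a probe, and the 5 probes nearest in profile. The Rplp1 probes fall outside this rule and were added after their values were seen. Normexp used an offset of 50 on median spot signals. Alternatives are given in the closing section.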

Additional observations from a re-analysis of the deposited data

How the results depend on the processing

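All 90 values of the 5 genes under 18 alternatives were above 0, and 60 of them moved by less than the SD between arrays. The genes were chosen for a higher signal on these arrays, so nothing is read from these counts. Without the filter, with detection required on all arrays, and with the replicate number as a block, the values could not change. The slide as a block repeats the values of scan 1. Over arrays left out in turn the differences ran from 0.79 to 0.88 for Mex3c, 0.65 to 0.84 for Eif4b, 0.36 to 0.46 for Pop7, 0.70 to 0.86 for Cse1l and 0.61 to 0.76 for Magoh. In the order Mex3c, Eif4b, Pop7, Cse1l and Magoh they were 1.02, 0.98, 0.53, 1.02 and 0.82 with quantile normalization, 1.05, 0.98, 0.52, 1.03 and 0.83 in the authors' value table, 1.09, 0.98, 0.64, 1.03 and 0.92 with no centring, and 0.63, 0.52, 0.18, 0.57 and 0.46 with median centring. Taking the percentile over probes detected on all arrays gave 0.97 for Mex3c, 0.53 for Pop7 and 0.80 for Magoh. Normexp with quantile normalization gave 0.93 for Mex3c, 0.91 for Eif4b and 0.93 for Cse1l. The slide (scan) as a block, and scan 1 alone, gave 0.51 for Eif4b and 0.60 for Cse1l. These shifts with centring follow from its construction, and the cause of the others was not tested.

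Of the 5 genes, 4 passed limma's threshold in the setting used. All 5 passed, Pop7 included, with quantile normalization, the authors' value table, the percentile over detected probes and both normexp settings. Of 23090 probes, 2155, 2184, 3644, 1868 and 1598 passed in these settings, with normexp and quantile before normexp and percentile. Of the 51 other mRNA probes 23, 24, 28, 22 and 20 passed, in the same order. The contrast chose the 5 genes, so nothing is read from their counts. With median centring the number of the 5 genes that passed was 1, Mex3c, and with the slide as a block 0 (limma, 4 at an unadjusted p below 0.05). Over arrays left out it ran from 0 (without DEHP 2) to 4. The count over the 51 other mRNA probes was 22, and became 9 with median centring and 12 with no centring. It was 0 with the slide as a block (limma, 17 at an unadjusted p below 0.05) and 0 to 26 over arrays left out. It was 0 without control 3, DEHP 1 or DEHP 2 (25, 27 and 28 at an unadjusted p below 0.05). Of all probes 2471 passed, against 568 with no centring, 1598 with normexp and percentile centring, 7 with the slide as a block and 275 to 4514 over arrays left out. Of the 2471, 1026 were higher in DEHP testis, against 298 of 3138 with median centring and 2501 of 3644 with the percentile over detected probes.

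With the replicate number as a block 4465 probes passed, 4 of the 5 genes among them. Arrays of the same number come from different rats, and their deviations from the group means correlated at 0.13, 0.46 and 0.08. These correlations were not set against those of arrays with different numbers. Whether arrays of the same number share a factor was therefore not tested.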
